A study of Mus musculus with 6 samples.

Results

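The genes described here are 46 genes of mitosis, taken by symbol from a list of mitotic kinases, cyclins, kinesins, kinetochore and condensin subunits and cytokinesis genes. All 46 were found among the 57180 rows of the table, and all 46 passed the filter on low counts that left 16989 genes. The samples were lung RNA from 3 FTO-overexpressing mouse samples (genotype FTO_OE) and 3 wild-type samples (genotype WT), all exposed to cigarette smoke in a model of chronic obstructive pulmonary disease; FTO removes the methyl group of N6-methyladenosine from RNA. The labels name no promoter or vector for the overexpression, no strain, age or sex and no length of smoke exposure, and they leave unsaid whether each library came from its own animal. The p-values therefore measure the spread between these samples, which may be technical. No library of unexposed lung was analysed here, so every comparison below is between genotypes under smoke.

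Mitosis is run by a short burst of gene expression late in the cell cycle. Cyclin-dependent kinase 1 with cyclins A and B starts it, condensin and topoisomerase compact the chromosomes, kinesins build the spindle, kinetochores attach chromosomes to it, and the anaphase-promoting complex then destroys securin and cyclin B so that sister chromatids part. In the resting adult lung few cells divide, and these transcripts mark the small cycling fraction. In bulk tissue, more cycling cells and more mitotic RNA per cycling cell cannot be told apart.

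Many mitotic promoters are known to share the CHR element, bound by LIN54 of the DREAM and MuvB complexes, and CCAAT boxes, bound by NF-Y. RefSeq promoters (build GRCm38.p6, from 250 bases before to 50 after the start) were at hand for 38 of the 46 genes. They were searched on both strands for the CHR element TTTGAA, the CCAAT box CCAAT, the E2F letters TTCCCGC and the TATA box TATAAA. The 250 bases before the start are shown for Ncapg, which held 3 of the 4 motifs, for Mki67, Top2a and Ccnb2, which come first by role among the many genes with 2, and for the genes with the largest and the smallest fold change in these lungs (Kif18b and Pttg1). Capitals mark the CHR element and the CCAAT box, read in either direction.
Ncapg (chr5:45669675-45669924, + strand): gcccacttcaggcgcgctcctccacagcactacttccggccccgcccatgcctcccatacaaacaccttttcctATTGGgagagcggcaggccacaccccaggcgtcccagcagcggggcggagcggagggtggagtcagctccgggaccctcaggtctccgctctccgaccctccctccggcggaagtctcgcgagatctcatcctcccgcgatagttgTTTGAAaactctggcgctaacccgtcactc
Mki67 (chr7:135716380-135716629, - strand): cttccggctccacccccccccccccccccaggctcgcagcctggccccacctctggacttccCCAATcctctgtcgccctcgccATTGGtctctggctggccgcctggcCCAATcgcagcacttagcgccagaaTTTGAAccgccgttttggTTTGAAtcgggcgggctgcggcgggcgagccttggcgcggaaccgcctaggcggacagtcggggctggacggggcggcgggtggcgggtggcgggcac
Top2a (chr11:99024190-99024439, - strand): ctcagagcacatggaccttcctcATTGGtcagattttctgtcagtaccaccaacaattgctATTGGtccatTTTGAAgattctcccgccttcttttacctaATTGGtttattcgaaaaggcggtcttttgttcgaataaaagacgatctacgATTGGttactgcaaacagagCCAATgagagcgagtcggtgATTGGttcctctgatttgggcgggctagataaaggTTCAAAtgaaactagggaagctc
Ccnb2 (chr9:70421555-70421804, - strand): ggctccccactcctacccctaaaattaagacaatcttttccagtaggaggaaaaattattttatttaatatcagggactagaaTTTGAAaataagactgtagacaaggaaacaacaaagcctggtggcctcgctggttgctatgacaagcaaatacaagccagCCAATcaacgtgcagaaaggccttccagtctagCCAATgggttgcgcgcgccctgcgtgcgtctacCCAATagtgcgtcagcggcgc
Kif18b (chr11:102925125-102925374, - strand): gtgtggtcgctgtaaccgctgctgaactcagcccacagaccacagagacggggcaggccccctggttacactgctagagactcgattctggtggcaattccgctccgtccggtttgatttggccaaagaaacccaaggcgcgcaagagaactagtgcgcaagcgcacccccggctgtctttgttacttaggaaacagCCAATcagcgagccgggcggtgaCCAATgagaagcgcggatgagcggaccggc
Pttg1 (chr11:43425982-43426231, - strand): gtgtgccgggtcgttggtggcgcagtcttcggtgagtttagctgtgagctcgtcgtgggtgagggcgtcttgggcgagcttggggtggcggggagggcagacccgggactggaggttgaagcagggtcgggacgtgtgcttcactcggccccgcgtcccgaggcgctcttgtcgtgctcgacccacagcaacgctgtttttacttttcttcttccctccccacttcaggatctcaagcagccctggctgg
Top2a held 6 CCAAT boxes, 5 of them reversed, and 2 CHR elements. In Kif18b the CHR element lay just after the start, from position 4 to position 9, outside the stretch shown. A second CHR element of Ccnb2, from position 5 to position 10, and the E2F letters of Ncapg, from position 32 to position 38, also lay outside it. None of the 4 motifs was found in the window of Pttg1.

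The CHR letters were present in 28 of the 38 promoters of mitosis genes (73.7%), against 20.2% of all 27025 genes with a promoter entry. CCAAT was present in 27 of the 38 (71.1%), against 41.1% of all genes, and 24 of the 38 (63.2%) held both, against 8.97% of all genes. The matches were also placed near the start. Among the 40 promoter entries of the mitosis genes, 42.5% had a CHR match beginning in the first 50 transcribed bases and 27.5% in the 50 bases before the start, against 2.25% and 2.82% of all 32851 entries. CCAAT matches lay further upstream. Among the mitosis promoters 45.0% held one between positions -100 and -51 and 42.5% between -50 and -1, against 12.5% and 9.03% of all entries. The E2F letters were found in 1 of 38 mitosis genes (2.63%), Ncapg, against 5.29% of all genes. TATAAA was found in 1 (2.63%), Kif2c, against 15.7% of all genes. Members with a CHR match had a median fold change of 2.24 between genotypes and those without one a median of 2.32, and this difference was not tested. These matches describe letters in a window and do not show that a factor binds there.

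**Figure D1:**
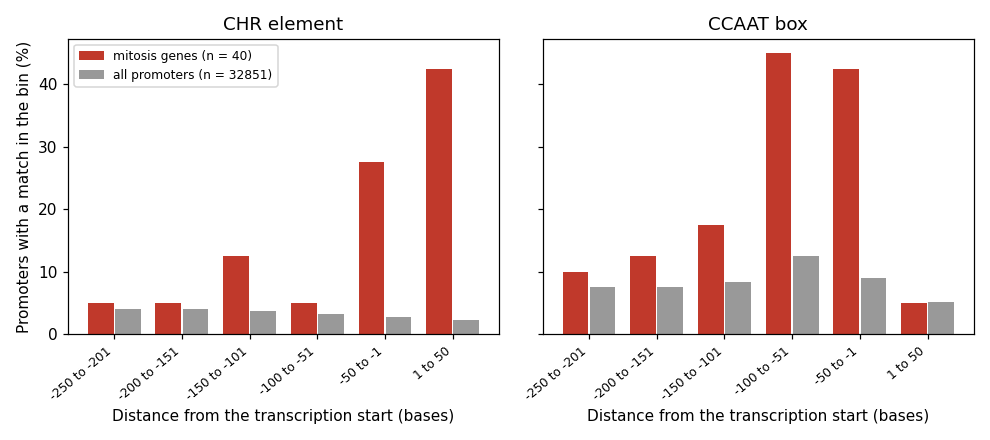
Share of promoters (%) with a match to the CHR element (left) or the CCAAT box (right) beginning in each 50-base bin around the transcription start. Red bars are the 40 promoter entries of mitosis genes and grey bars all 32851 entries; the red bars stand highest at 42.5% after the start for the CHR element and at 45.0% between -100 and -51 for CCAAT.

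Levels are given as CPM, read counts scaled to library size with TMM factors. Fto itself was at 666, 650.1 and 741 CPM in the libraries labelled FTO_OE, against 66.2, 69.9 and 68.6 CPM in those labelled WT. Libraries held 16731850 to 21444907 counts, of which the 46 genes took between 12408.54 and 20999.85 in FTO-overexpressing and between 6631.59 and 9331.94 in wild-type libraries. Single genes had from 18 reads (Ttk, wild-type replicate 3) to 2649 reads (Mki67, FTO-overexpressing replicate 3), so counting error is largest for Ttk and Kif18b in the wild type. Lung markers were present throughout: the summed level of 8 alveolar type 2 cell markers was 16985 to 20488 CPM in FTO-overexpressing and 19528 to 22636 CPM in wild-type lungs. These sums overlapped, but all 8 markers had a fold change below 1 (median 0.835), and 4 were lower at an unadjusted p of 0.05 with edgeR. DESeq2 called 3 of the 8 after adjustment. All 8 endothelial markers had a fold change below 1 (median 0.920), and 3 were lower at an unadjusted p of 0.05. Their sums lay apart, at 3554 to 3894 CPM in FTO-overexpressing and 4036 to 4220 CPM in wild-type lungs. All 6 alveolar type 1 markers were below 1 as well (median 0.887), 1 of them at that p. Their sums were 2903 to 3371 CPM against 3414 to 3887 CPM. Sums of airway, ciliated and fibroblast markers overlapped. Of 3 mesothelial markers 2 were lower at an unadjusted p of 0.05 with edgeR (median 0.353-fold), and 0 with limma-voom. The smallest edgeR adjusted p among them was 0.444. Mesothelial sums overlapped, at 18.5, 14.2 and 9.50 CPM in FTO-overexpressing against 11.65, 66.8 and 35.3 CPM in wild-type lungs. The part of these cell types in the mitosis result was not tested.

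Nearly all mitosis genes were higher in FTO-overexpressing than in wild-type smoke-exposed lungs. Fold changes are edgeR estimates with 95% intervals. 45 of the 46 genes had a fold change above 1, with a median of 2.27-fold, against a median of 1.00 over all 16989 genes tested, and 32 of the 46 differed at least 2-fold, against 2.73% of all genes. In 44 of the 46, each FTO-overexpressing library lay above each wild-type library, a pattern that 7.96% of all genes tested showed. At an unadjusted p of 0.05, 45 of the 46 were higher in the FTO-overexpressing lungs and 0 were lower, against 5.77% and 3.67% of all genes tested (9.44% in either direction). Library groups lay apart with the FTO-overexpressing ones lower in 0 of the 46, against 6.9% of all genes tested. After Benjamini-Hochberg adjustment over all genes, 0 of the 46 passed 0.05 with edgeR, where 0.0765% of all genes were called higher and 0.0942% in either direction. The smallest edgeR adjusted p was 0.0702, for Kif18b, and 4 of the 46 lay under 0.1 (0.336% of all genes, higher).

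The number of calls depended on the tool and on the filter. DESeq2 called 37 of the 46 higher (1.98% of the genes it gave an adjusted p), and edgeR without a filter on low counts called 30 (0.853%). With limma-voom 0 were called (0.0118% of all genes), and 42 were higher at an unadjusted p under 0.05 (5.7% of all genes). With the genes of haemoglobin, immunoglobulin and the mitochondrion removed, edgeR called 1, Kif18b (0.143%). Without replicate 1 of the FTO-overexpressing group, edgeR called 6 (0.259%): Kif18b, Tpx2, Incenp, Top2a, Cenpa and Kif20a. Without any other single library it called 0. Among the 6 fits that each left out 1 library, between 42 and 45 of the 46 were higher at an unadjusted p of 0.05, against 4.27% to 6.99% of all genes. The median of the 46 lay between 2.03-fold and 2.67-fold.

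The summed level of the 46 genes was 630.5, 908 and 968 CPM in FTO-overexpressing replicates 1, 2 and 3, against 414, 490.2 and 365 CPM in wild-type replicates 1, 2 and 3. The groups did not overlap, and replicate 1 of the FTO-overexpressing group and wild-type replicate 2 were nearest to each other. Relative to the wild-type mean, the median gene was at 1.66 in FTO-overexpressing replicate 1, at 2.47 in replicate 2 and at 2.61 in replicate 3. Within the FTO-overexpressing group, replicate 1 was the lowest library for 42 of the 46 genes and replicate 3 the highest for 30. Within the wild type, replicate 2 was the highest for 37 and replicate 3 the lowest for 32. The spread within a group was wide: the coefficient of variation of the median mitosis gene was 27.0% in FTO-overexpressing and 22.5% in wild-type lungs, against 11.3% and 11.0% for the median of all genes tested.

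**Figure D2:**
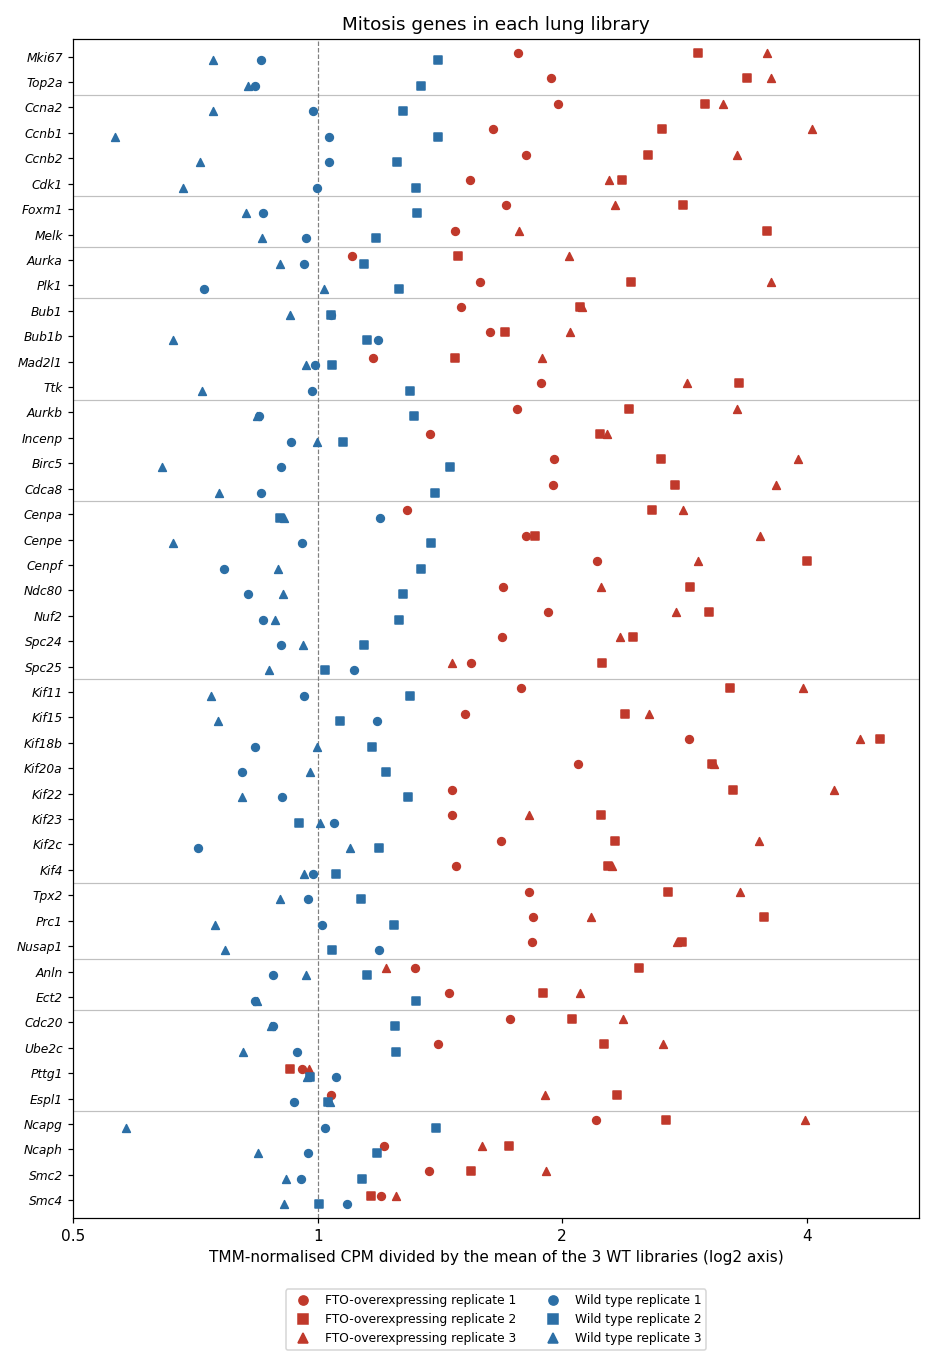
Level of each of the 46 mitosis genes in each library, as TMM-normalised CPM divided by the mean of the 3 wild-type libraries (log2 axis), with genes grouped by role between grey lines. Red points are FTO-overexpressing and blue points wild-type libraries, and the shape gives the replicate; only Pttg1 and Aurka have red points among the blue ones, and Espl1, Ncaph, Anln and Smc4 have them close by.

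Mki67 and Top2a are the usual tissue markers of cycling cells; Ki-67 coats mitotic chromosomes and topoisomerase II alpha untangles them. Mki67 (ENSMUSG00000031004) was measured at 60.4, 100.5 and 122 CPM in the FTO-overexpressing lungs, against 29.2, 48.1 and 25.4 CPM in the wild-type lungs. It was 2.76-fold higher (95% interval 1.68 to 4.54; edgeR adjusted p = 0.152). Top2a (ENSMUSG00000020914) stood at 50.8, 88.4 and 94.6 CPM against 21.9, 35.1 and 21.5 CPM, 2.97-fold higher (1.90 to 4.64; edgeR adjusted p = 0.107). For both genes the groups did not overlap, and wild-type replicate 2 and FTO-overexpressing replicate 1 were nearest to each other.

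The cyclins and their kinase, which drive entry into mitosis, were all at least 2-fold higher. Ccna2, the A-type cyclin of proliferating cells, had 19.0, 28.9 and 30.4 CPM in FTO-overexpressing lungs, against 9.48, 12.2 and 7.15 CPM in wild-type lungs. Its fold change was 2.71 (1.84 to 4.00; edgeR adjusted p = 0.0992). Ccnb1, whose product is the main mitotic cyclin, was more scattered, at 7.06, 11.4 and 17.5 CPM against 4.44, 6.04 and 2.42 CPM, and was 2.78-fold higher (1.44 to 5.38). Ccnb2, the Golgi-associated B-type cyclin, was 2.55-fold higher (1.62 to 4.01). Cdk1 stood at 8.94, 13.8 and 13.3 CPM against 5.80, 7.67 and 3.96 CPM, with a fold change of 2.06 (1.33 to 3.20). Foxm1, the transcription factor of late cell cycle genes, averaged 11.8 ± 2.89 CPM in FTO-overexpressing and 5.19 ± 1.47 CPM in wild-type lungs (SD, n = 3 each), 2.28-fold higher (1.50 to 3.46). Melk, a kinase gene of cycling and progenitor cells, had 3.81, 9.21 and 4.57 CPM in FTO-overexpressing lungs, with the peak in replicate 2, and 2.20 to 3.05 CPM in wild-type lungs.

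The kinase genes of the centrosome and spindle differed from each other in size. Plk1, the Polo kinase of mitotic entry and spindle assembly, had 4.62, 7.11 and 10.6 CPM in FTO-overexpressing lungs, against 2.11, 3.68 and 2.97 CPM in wild-type lungs, and was 2.54-fold higher (1.46 to 4.42). Aurka, the Aurora A kinase of centrosomes, was at 3.91, 5.29 and 7.24 CPM against 3.41, 4.04 and 3.19 CPM. Its groups overlapped, since FTO-overexpressing replicate 1 lay below wild-type replicate 2, and its fold change of 1.54 (1.02 to 2.35) had an edgeR adjusted p of 0.509.

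Genes of the spindle assembly checkpoint, which holds back anaphase until every kinetochore is attached, were between 1.51-fold and 2.66-fold higher. Ttk, the kinase at the head of the checkpoint, had 51, 80 and 85 reads in FTO-overexpressing and 25, 34 and 18 reads in wild-type libraries, where Ttk and Kif18b had the fewest reads of the 46 genes. Bub1, a checkpoint kinase gene, stood at 7.06, 9.89 and 9.96 CPM in FTO-overexpressing lungs, against 4.88, 4.88 and 4.35 CPM in wild-type lungs (1.91-fold, 1.41 to 2.58). Bub1b, which encodes the inhibitor BubR1, was 1.79-fold higher (1.24 to 2.57). Mad2l1, which encodes the Cdc20 inhibitor MAD2, had the smallest fold change of this group at 1.51 (1.14 to 2.00), with 15.1, 19.1 and 24.5 CPM against 12.8, 13.5 and 12.5 CPM.

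All 4 genes of the chromosomal passenger complex, which corrects faulty attachments and guides cytokinesis, had groups that did not overlap. Aurkb, its kinase, stood at 5.64, 7.73 and 10.5 CPM in FTO-overexpressing lungs, against 2.71, 4.20 and 2.70 CPM in wild-type lungs. Fold changes were 2.48 for Aurkb (1.55 to 3.98), 2.83 for Birc5, which encodes survivin (1.59 to 5.05), and 2.78 for Cdca8, which encodes borealin (1.67 to 4.65). The scaffold gene Incenp was 1.96-fold higher (1.43 to 2.68), from 17.1, 27.7 and 28.3 CPM against 11.5, 13.4 and 12.4 CPM.

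The 7 genes of the centromere and outer kinetochore were between 1.74-fold and 3.04-fold higher. Cenpf, a large kinetochore and nuclear matrix protein gene, had the second largest fold change of the 46 at 3.04 (1.92 to 4.82; edgeR adjusted p = 0.111), with 10.5, 19.0 and 13.9 CPM in FTO-overexpressing lungs, against 3.63, 6.36 and 4.24 CPM in wild-type lungs. The 4 subunits of the NDC80 complex, which grips spindle microtubules, gave fold changes of 2.26 for Ndc80 (1.47 to 3.48), 2.56 for Nuf2 (1.73 to 3.81), 2.16 for Spc24 (1.49 to 3.12) and 1.74 for Spc25 (1.22 to 2.50), with intervals that overlapped. Spc25 was 1 of 2 genes lowest in FTO-overexpressing replicate 3 among the libraries of its group, at 6.05, 8.76 and 5.72 CPM against 4.33, 3.99 and 3.41 CPM. Cenpa, which encodes the histone H3 variant that marks centromeres, was close to the wild type in FTO-overexpressing replicate 1 (8.43 CPM, against 7.80, 5.88 and 5.94 CPM in wild-type lungs) and higher in replicates 2 and 3 (16.9 and 18.4 CPM). Cenpe, the kinetochore motor gene, was 2.39-fold higher (1.36 to 4.20).

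Kinesins are the motor proteins of the spindle, and their 8 genes had a median of 2.61-fold. Kif18b, which trims the plus ends of astral microtubules, had the largest fold change of the 46 genes, 4.13 (2.63 to 6.48; edgeR adjusted p = 0.0702). It stood at 4.27, 7.33 and 6.92 CPM in FTO-overexpressing lungs, against 1.25, 1.73 and 1.49 CPM in wild-type lungs. Its lowest FTO-overexpressing library was 2.46 times its highest wild-type library, the widest gap among the 46. Kif20a, a motor of cytokinesis, had 9.40, 13.8 and 13.8 CPM against 3.63, 5.46 and 4.40 CPM (2.74-fold, 1.91 to 3.93; edgeR adjusted p = 0.0923). Kif11, the Eg5 motor that pushes spindle poles apart, was 2.99-fold higher (1.79 to 4.99). Kif22, a chromosome arm motor, had a similar fold change of 3.01 but a wider interval (1.59 to 5.67), since it stood at 5.18 CPM in FTO-overexpressing replicate 1 and at 11.5 and 15.3 CPM in replicates 2 and 3, against 3.20, 4.57 and 2.86 CPM in wild-type lungs. The fold change was 2.50 for the microtubule depolymerase gene Kif2c, 2.16 for Kif15, which backs up Kif11, 2.02 for the chromokinesin gene Kif4 and 1.84 for the central spindle motor gene Kif23.

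The 3 genes of spindle microtubule regulators were close in size, between 2.47-fold and 2.61-fold higher. Tpx2, which activates Aurora A and seeds microtubules, had 13.4, 19.8 and 24.3 CPM in FTO-overexpressing lungs, against 7.15, 8.30 and 6.60 CPM in wild-type lungs (2.61-fold, 1.81 to 3.75; edgeR adjusted p = 0.097). Nusap1, which bundles microtubules at chromosomes, was 2.47-fold higher (1.72 to 3.55). Prc1, the bundler of the central spindle, peaked in FTO-overexpressing replicate 2 with 37.6 CPM, beside 19.6 and 23.0 CPM in replicates 1 and 3, against 10.7, 13.2 and 7.92 CPM in wild-type lungs.

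Both genes grouped here under cytokinesis, Anln and Ect2, had smaller differences than Kif20a, the motor of cytokinesis listed with the kinesins (2.74-fold). Genes of the chromosomal passenger complex, which also guides cytokinesis, were between 1.96-fold and 2.83-fold higher. The smaller differences were therefore not shared by all genes with a part in cytokinesis. Anln, which encodes the contractile ring scaffold anillin, stood at 14.7, 27.7 and 13.5 CPM in FTO-overexpressing lungs, against 9.81, 12.8 and 10.8 CPM in wild-type lungs. Its lowest FTO-overexpressing library was 1.05 times its highest wild-type library, and replicate 2 stood apart from the other FTO-overexpressing libraries. The fold change was 1.67 (1.07 to 2.61). Ect2, the exchange factor that switches on RhoA at the cell equator, was 1.82-fold higher (1.26 to 2.63).

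Genes of the anaphase switch split into those that were higher and 1 that was not. Cdc20, the activator of the anaphase-promoting complex, had 11.6, 13.8 and 16.0 CPM in FTO-overexpressing lungs, against 5.91, 8.35 and 5.89 CPM in wild-type lungs (2.05-fold, 1.50 to 2.82; edgeR adjusted p = 0.123). Ube2c, its partner ubiquitin-conjugating enzyme, was 2.10-fold higher (1.36 to 3.25). Espl1, which encodes the cohesin protease separase, was 1.76-fold higher (1.09 to 2.83), but FTO-overexpressing replicate 1 (3.91 CPM) was level with the highest wild-type library (3.91 CPM). Pttg1, which encodes securin, the inhibitor of separase, was at 42.9, 41.5 and 43.8 CPM in FTO-overexpressing lungs, against 47.3, 43.9 and 43.5 CPM in wild-type lungs. It was the single gene of the 46 with a fold change below 1, 0.952 (0.846 to 1.07, edgeR adjusted p = 0.844). The upper bound of its interval was below the fold change of each of the other 45 genes. Its interval still overlapped those of Smc4, Aurka and Anln.

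Condensin, the ring complex that shapes mitotic chromosomes, spanned small and large differences. Its regulatory subunit gene Ncapg was 2.95-fold higher (1.68 to 5.17), at 7.93, 9.67 and 14.3 CPM in FTO-overexpressing lungs, against 3.68, 5.04 and 2.09 CPM in wild-type lungs. Ncaph, the kleisin subunit gene, was 1.50-fold higher (1.12 to 2.02). The ATPase core genes Smc2 and Smc4 serve both condensins: Smc2 was 1.61-fold higher (1.27 to 2.04) and Smc4 1.20-fold higher (1.05 to 1.38). Smc4 stood at 84.6, 82.2 and 88.1 CPM against 76.7, 71.0 and 64.3 CPM, so its groups did not overlap although the difference was small. The intervals of Smc4 and Ncapg did not overlap.

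**Figure D3:**
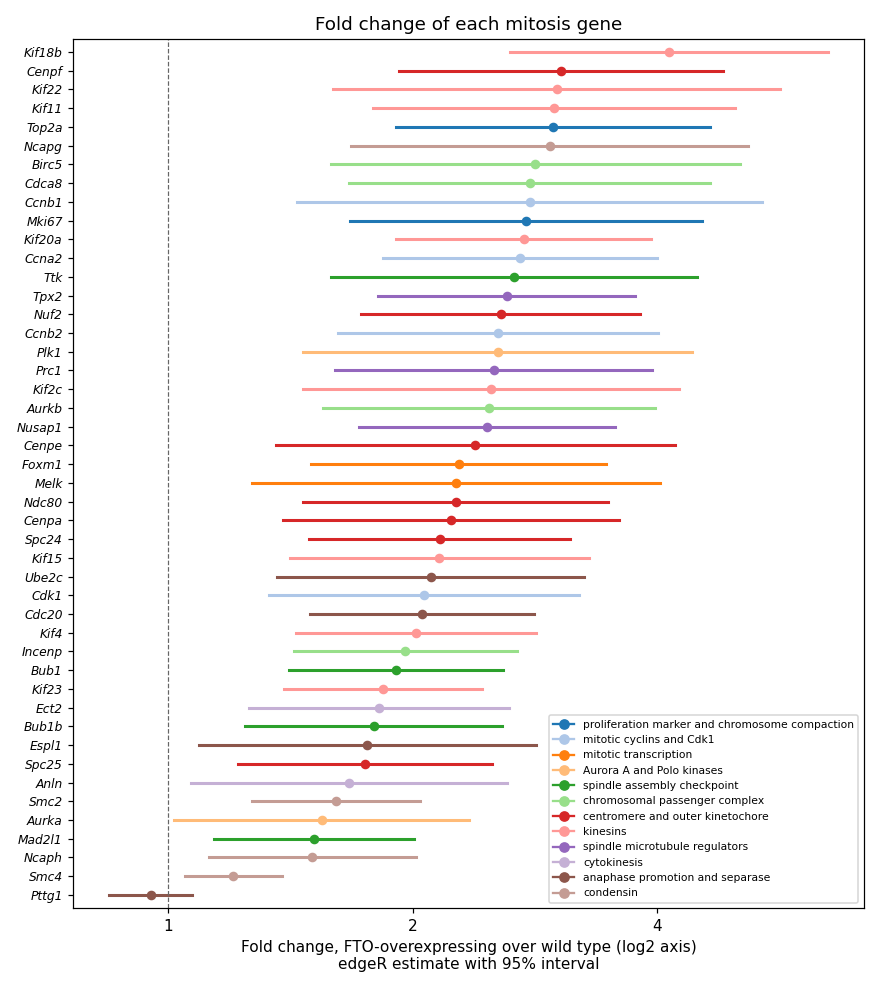
Fold change of each mitosis gene, FTO-overexpressing over wild type (log2 axis), as edgeR estimates (points) with 95% intervals (lines), sorted by size and coloured by role. Kif18b stands at the top with 4.13, Pttg1 at the bottom with 0.952, and 45 intervals lie above 1 without adjustment for the number of genes.

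Other genes of the division machinery, taken from lists that were not limited to these 46, were set beside them. Of 58 further mitosis genes, 49 were higher and 0 lower at an unadjusted p of 0.05, 0 passed 0.05 with edgeR after adjustment over all genes, and the median was 2.26-fold. DESeq2 called 29 of the 58 and limma-voom 0, with 47 at an unadjusted p under 0.05. The smallest p-values belonged to Kif20b, a kinesin gene of late mitosis (2.23-fold, edgeR adjusted p = 0.0793), Aspm, a spindle pole gene (2.99-fold), and Ckap2l, a spindle protein gene (2.42-fold). The 9 that did not reach an unadjusted p of 0.05 included the kinetochore genes Mis12 (0.963-fold), Zwint (1.01-fold) and Zw10 (1.06-fold). The microtubule genes Ckap5 (1.10-fold) and Kif2a (1.07-fold) were also among them. Not all of the 9 lay near 1: Cdkn3 was at 2.19-fold (edgeR unadjusted p = 0.054) and Kif18a at 1.43-fold (0.0872). These examples were chosen after their values were seen. Of the 4 other condensin subunit genes, Ncapd2 was 2.14-fold, Ncapg2 1.77-fold and Ncapd3 1.29-fold higher at an unadjusted p under 0.05. Ncaph2 stood at 1.06-fold with overlapping groups, and the list median was 1.51-fold.

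Complexes used in mitosis but present throughout the cell cycle differed little. For 9 cohesin genes, whose rings hold sister chromatids together, the median was 1.04-fold, with a range from 0.960-fold to 1.14-fold. Of these 9, 0 had an unadjusted p under 0.05 in either direction with edgeR, DESeq2 or limma-voom. In 3 of the 9 (33.3%), each FTO-overexpressing library lay above each wild-type library, against 7.96% of all genes tested. For 15 genes of the anaphase-promoting complex, its activator gene Fzr1 among them, the median was 1.02-fold, with 0 at an unadjusted p under 0.05 with any of these tools. In 1 of these 15 (6.67%) the library groups lay apart, with the FTO-overexpressing ones higher. The inner kinetochore list of 16 genes lay between, with 7 higher and 0 lower at an unadjusted p of 0.05 and a median of 1.40-fold, led by Cenpi (2.02-fold). Of 12 genes of the DREAM and Rb complexes 3 were higher and 1 lower at that level: the pocket protein gene Rbl1 was 1.41-fold and the E2F partner gene Tfdp1 1.36-fold higher, and Tfdp2 had a ratio of 0.848. Of 30 DNA replication genes 22 were higher and 0 lower, with a median of 1.55-fold, led by the polymerase gene Pola1 (1.67-fold, edgeR adjusted p = 0.0923), the nucleotide synthesis gene Rrm2 (3.08-fold) and the helicase gene Mcm6 (1.66-fold). Whether the medians of these lists differ from that of the 46 genes was not tested. Of 10 cell cycle inhibitor genes 2 were higher, Cdkn2c (1.57-fold) and Cdkn2d (1.42-fold), and 1 was lower, Cdkn1c (0.718-fold), at an unadjusted p of 0.05.

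**Figure D4:**
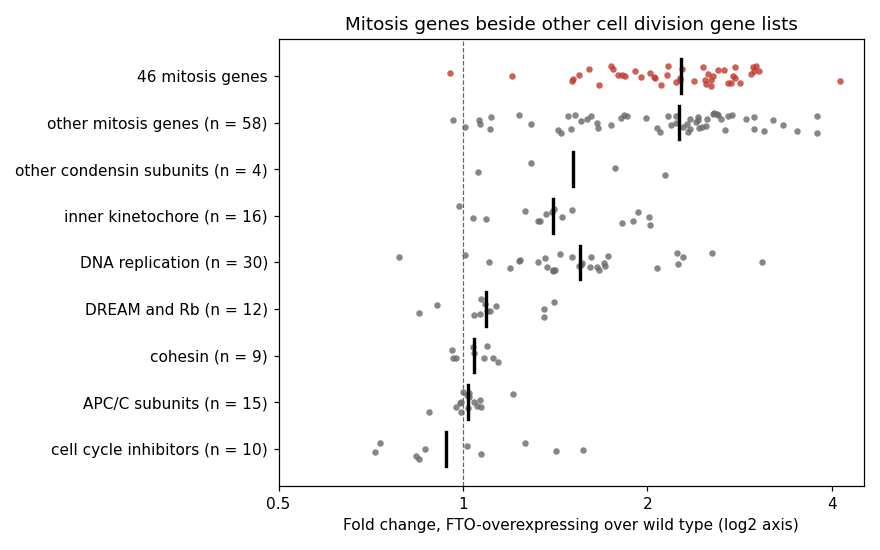
Fold change of single genes (points; FTO-overexpressing over wild type, log2 axis) in the 46 mitosis genes (red) and in 8 other lists of cell division genes (grey), with the median of each list as a black bar. The medians run from 2.27 for the 46 genes and 2.26 for the other mitosis genes to 1.04 for cohesin, 1.02 for the anaphase-promoting complex and 0.938 for the inhibitors.

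Markers of T cells and cytotoxic lymphocytes, which divide when activated, were higher together with the mitosis genes. All 15 T cell markers were higher at an unadjusted p of 0.05, 3 of them past an edgeR adjusted p of 0.05 (Lck, Cd8a and Cd8b1), and their summed level was 351, 449.5 and 748 CPM in FTO-overexpressing lungs, against 152, 141 and 106 CPM in wild-type lungs. Of 11 NK and cytotoxic markers 10 were higher at an unadjusted p of 0.05, and 3 of them passed an edgeR adjusted p of 0.05 (Ccl5, Klrg1 and Klrk1). Their sum was 307, 432 and 711 CPM against 75.0, 37.5 and 43.5 CPM. Within the FTO-overexpressing group the order of replicates 1, 2 and 3, lowest to highest, was the same for these sums as for the mitosis genes. Within the wild type it was not: the mitosis genes were highest in replicate 2, the T cell and cytotoxic markers in replicate 1. The part of lymphocytes in the mitosis result was not tested.

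Except for thymocyte markers, those of other dividing or blood-borne cell types gave overlapping sums. The 8 B cell markers summed to 102, 97.5 and 102 CPM in FTO-overexpressing and 149.9, 94.2 and 56.9 CPM in wild-type lungs, with 0 of 8 at an unadjusted p under 0.05 with edgeR, DESeq2 or limma-voom. Erythroid precursor markers summed to 471, 281 and 145 CPM against 363, 277 and 202 CPM, and myeloid precursor markers to 5.74, 7.33 and 26.6 CPM against 8.34, 15.4 and 10.5 CPM. The 5 thymocyte markers summed to 14.4, 15.4 and 14.4 CPM against 13.3, 14.2 and 13.1 CPM, which lay apart by a small margin. Only 1 of the 5 passed the filter, at 1.10-fold with an edgeR unadjusted p of 0.233. Ptcra and Rag2 had 0 counts in all 6 libraries. Neutrophil markers summed to 1958, 916 and 2020.3 CPM against 1573, 1361 and 1108 CPM, and 9 alveolar macrophage markers to 2511, 1604 and 1762 CPM against 3151, 2288 and 2297 CPM.

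**Figure D5:**
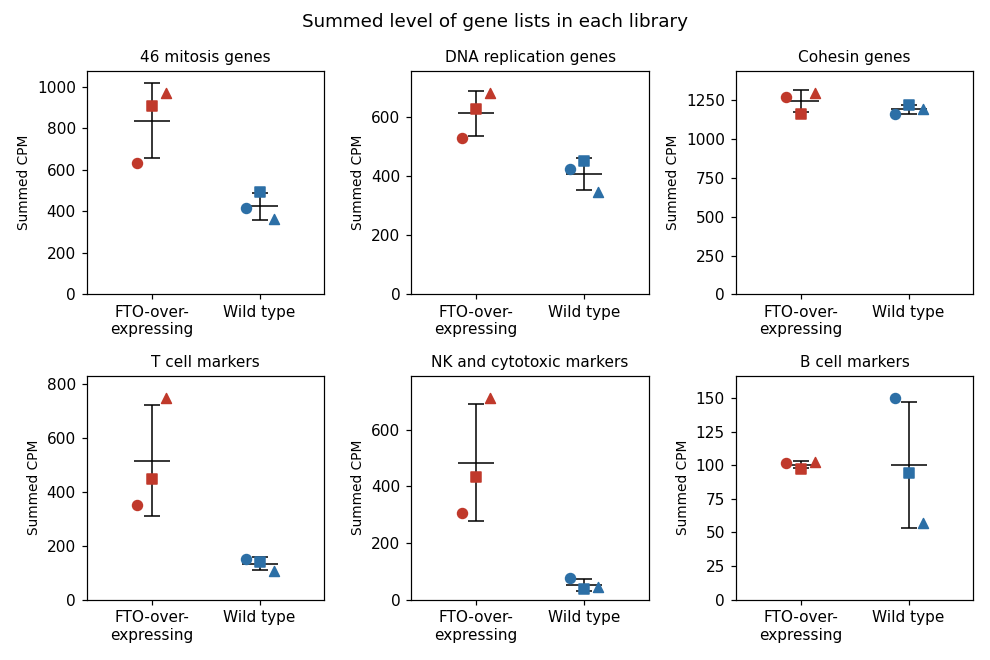
Summed TMM-normalised CPM of 6 gene lists in each library (points, with the shape giving the replicate as circle, square and triangle for 1, 2 and 3) with mean and SD (black) for FTO-overexpressing (red) and wild-type (blue) lungs. The mitosis genes sit at 630.5 to 968 CPM in FTO-overexpressing and 365 to 490.2 CPM in wild-type lungs, T cell and cytotoxic markers are likewise apart, and B cell markers overlap.

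Of the 46 genes, 13 overlap an exon of another gene in the GENCODE M21 annotation, 11 of them on the opposite strand. The 13 had a median of 2.54-fold and the other 33 a median of 2.16-fold. Non-whole counts occurred in 12 of the 46, and 6 of these 12 have an overlap on the opposite strand. In FTO-overexpressing replicate 1, Ccna2 had 373.93 and Exosc9 521.07 reads, and Kif4 had 124.96 and Pdzd11 455.04. The fractions of each pair add up to a whole read, as when reads are shared between overlapping genes. For Prc1 (384.54) and Rccd1 (96.43) they nearly did. Among the partners of the largest overlaps, the fold change was 1.00 for Cdc23 (partner of Kif20a), 1.06 for Exosc9 (Ccna2), 1.01 for Pdzd11 (Kif4) and 1.00 for Lcorl (Ncapg). It was 0.853 for Rccd1 (Prc1), with an interval of 0.591 to 1.23. Of the smaller overlaps, Oip5 (Nusap1, 172 bases) was 2.30-fold higher with groups apart (edgeR unadjusted p = 0.0139). Airim (Cdca8) stood at 0.975-fold and Elovl1 (Cdc20) at 0.912-fold. Ube2c overlaps Tnnc2, a skeletal muscle gene that had 147.99 reads in FTO-overexpressing replicate 3, 0 in the other FTO-overexpressing libraries and 0, 1 and 0 in the wild type. Ube2c had 325.01 reads in that library and was higher than the wild type in the other FTO-overexpressing libraries as well (7.93 and 12.7 CPM against at most 7.04 CPM). The pseudogenes Ccnb1-ps and Ccnb2-ps had at most 3.36 reads in a library.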

How the data were processed

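RNA of 6 mouse lung samples was sequenced; per the labels' protocols it was extracted with TRIzol and prepared with a stranded Illumina mRNA kit, and the submitters' processing notes name fastp, HISAT2 and StringTie. The authors deposited 1 table of estimated counts per gene (expected counts, 9.66% to 10.3% of rows not whole), unscaled; genome build, annotation and use of strand in counting: not given in the sources used here. No gene positions are therefore printed beside values. 525 rows without a symbol (0.119% to 0.143% of counts) were kept under their gene identifiers.

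Counts were rounded and fitted with edgeR 4.0.16 in R 4.3.3 (filterByExpr, TMM, quasi-likelihood F-test, group as the only term), with Benjamini-Hochberg adjustment over 16989 genes and a threshold of 0.05. Intervals derive from the fold change and its F statistic. The fit was tested on simulated data. Libraries of 1 group differed beyond counting noise (25.9 to 44.8 for chi-square per degree of freedom), so none was counted as a duplicate. Pairs of opposite genotype ran from 19.2 to 43, and the closest were replicates 1 of both groups. FTO-overexpressing replicate 2 and wild-type replicate 3 stood at 24.7. Some libraries were thus nearer to one of the other genotype than to their own group. A batch shared across genotypes was not tested. Alternatives included DESeq2 1.42.0 and limma-voom (limma 3.58.1). All 46 members could be named; of other lists, the 3 genes with the smallest p, with exceptions stated. Members and lists were chosen with earlier results of these data known. Promoters are RefSeq entries matched by symbol; Kif20a, Spc24, Foxm1, Aurkb, Tpx2, Incenp, Ccna2 and Smc4 had none. No protein sequences were used here.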

Additional observations from a re-analysis of the deposited data

How the results depend on the processing

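The 46 genes kept their directions in each alternative run: 45 above and Pttg1 below a fold change of 1 (44 and Pttg1 with a mean of at least 50 counts, which removed 1 gene). Their median log2 fold change, 1.18, ran from 1.16 (limma-voom) to 1.23 (scaling by library totals) over the fits of all 6 libraries and from 1.02 to 1.41 without 1 library. Between 43 and 45 genes had groups that did not overlap. Over all genes that share was 7.96% in the main fit. It ran from 5.71% (no filter on low counts) to 10.2% (scaling by library totals) over the fits of all 6 libraries. Without 1 library it was 11.5% to 15.4%. Between 42 and 45 were higher at an unadjusted p of 0.05, against 4.27% to 6.99% of all genes.

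The number past an adjusted p of 0.05 was the unstable value. For the 46 genes, the other mitosis genes and all genes it was 0, 0 and 16 with edgeR. It was 30, 23 and 287 with no filter on low counts and 37, 29 and 424 with DESeq2. It was 0, 0 and 5 with limma-voom, and 0, 0 and 2 with the replicate number as a block. Without the genes of haemoglobin, immunoglobulin and the mitochondrion it was 1 (Kif18b), 0 and 31. At an adjusted p of 0.1 it was 4, 2 and 70, and at 0.01 it was 0, 0 and 1. Without 1 library the 3 counts ran from 0 to 6, from 0 to 3 and from 1 to 49, with the highest values without FTO-overexpressing replicate 1; all genes gave 1 without FTO-overexpressing replicate 2 or wild-type replicates 2 or 3, 6 without FTO-overexpressing replicate 3 and 11 without wild-type replicate 1. The cause was not tested. In the labels, same-numbered libraries of opposite genotype share only that number. Same-numbered libraries correlated at 0.108, -0.308 and -0.308 in their deviations from the group means, so they were not treated as pairs. Libraries with unlike numbers ran from -0.2 to 0.43, highest for FTO-overexpressing replicate 2 and wild-type replicate 3. Pairing under other numbers was not tested. The main fit had 0 calls among the 46 genes that the block could remove. With the block, 44 were higher at an unadjusted p of 0.05 (edgeR), against 4.97% of all genes, and the edgeR adjusted p of Kif18b was 0.121. Depth limits Ttk and Kif18b most.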
